A study of Mus musculus with 18 samples.

Results

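The comparison concerned 12 of the 18 lung samples of the series, those of the Tfam and Cox10 lines, and asked where the response of the lung to loss of Tfam differed from its response to loss of Cox10 and where the responses were shared. The members were chosen by their labels alone: all samples of the 2 lines were used, 3 per group in 4 groups. Whole lungs of mouse embryos were collected at 14.5 days post coitus (dpc). The deficient lungs were Tfam f/f; ShhCre/+ or Cox10 f/f; ShhCre/+, in which Cre recombinase converts both floxed copies into null alleles, and the controls were littermates with 1 floxed copy, Tfam f/+; ShhCre/+ or Cox10 f/+; ShhCre/+. The labels and methods give these control genotypes, while a legend of the study names the control as ShhCre/+ alone. All 4 groups thus carried Cre, which is expressed from the Shh locus and in the lung acts in the epithelium. The ShhCre allele takes the place of 1 Shh copy, and controls of the labelled genotype had lost 1 copy of the floxed gene in the epithelium as well. Since RNA came from the whole organ, fewer cells of a type and less RNA per cell cannot be told apart. The study pooled mutants of several litters in its statistics without saying which RNA samples shared a litter, and p-values measure the spread between these samples.

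Tfam encodes a transcription factor of mitochondria that also packages mitochondrial DNA. Cox10 encodes a farnesyltransferase that makes the heme group of cytochrome c oxidase, the last electron acceptor complex of the respiratory chain. Loss of Tfam therefore affects all complexes with mitochondrially encoded subunits, while Cox10 serves a single complex. Cells with defective mitochondria commonly induce the integrated stress response, in which the transcription factor ATF4 raises genes for amino acid synthesis, amino acid uptake and folate-dependent one-carbon metabolism. ATF4 and its partners bind a composite DNA element in the promoters of many of these genes. Branching of the embryonic lung depends on signals between the epithelium, which makes SHH, and the mesenchyme, which answers with Hedgehog target genes and makes FGF10.

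Values were gene read counts scaled by the size factor that belongs to each sample, called normalised reads here, and they were analysed as log2(value + 1), a scale that understates the change of low genes. They summed to between 27725270 and 29539368 per sample, and 17667 to 17907 genes were above 0. Genes that reached 10 in 3 or more of 6 samples in each table were tested, which held for 14701 of 23416 genes. The targeted genes did not separate the groups in RNA of the whole lung. Tfam had 1057, 1063 and 1185 normalised reads in the Tfam control lungs and 940, 994 and 1106 in the Tfam-deficient lungs, while Cox10 had 753, 812 and 824 in the Cox10 control lungs and 809, 829 and 743 in the Cox10-deficient lungs. The values overlapped in both lines. One library stood apart. Cox10 deficient replicate 3 had the smallest weight of the 12 samples, 0.203, when limma estimated a weight for each sample, and the Cox10-deficient group had the largest median SD across genes, 0.124 on the log2 scale, against 0.0726 to 0.109 in the other groups. In this library the mean log2 value of the alveolar list was 8.26, against 7.25 and 7.50 in the other Cox10-deficient lungs, and that of the endothelium list was 11.2, against 10.8 and 10.5. Sex-linked genes varied within groups. Xist ranged from 13.1 to 43497 normalised reads, and all 6 Tfam libraries and Cox10 control replicate 3 held Xist together with at least 20.3 normalised reads of the Y-linked gene Ddx3y. Cox10 deficient replicate 3 differed in these genes from the rest of its group, with 13.8 normalised reads of Xist and 1984 of Ddx3y against at least 36743 and at most 1.00 in replicates 1 and 2, so that every fit without this library also leaves out the only one of its group with Y-linked reads at that level. The part of these features in the results was tested only by leaving each sample out, by sample weights and by Xist as a covariate.

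The change in deficient lungs differed between the lines for 4 of 14701 genes (0.0272%) at a limma adjusted p below 0.05, with 3 of higher change (0.0204%) and 1 of lower change (0.0068%) in the Tfam line. Asns, Atf5 and Gm6548 rose more in the Tfam line, and Ctse fell in the Tfam line with no such fall in the Cox10 line. Each had a limma adjusted p of 0.0126. At an unadjusted p below 0.05 there were 678 genes (4.61%), 328 of them with the higher change in the Tfam line. Over all tested genes, 65.4% had a change of the same sign in both lines.

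**Figure D1:**
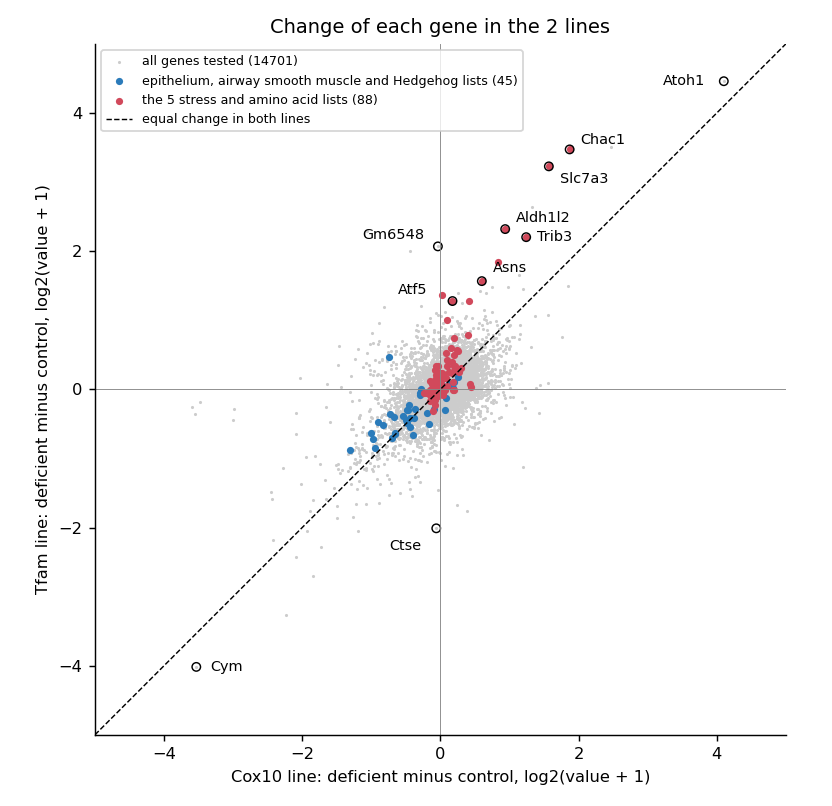
Change of each of the 14701 tested genes in the Cox10 line (x axis) and in the Tfam line (y axis), as deficient minus control on the log2(value + 1) scale, with 1 point per gene. Red points are the 88 genes of the 5 stress and amino acid lists, blue points are 45 genes of the epithelium, airway smooth muscle and Hedgehog lists, and the dashed line marks equal change. Chac1, Slc7a3, Aldh1l2, Trib3, Asns and Atf5 lie above the dashed line, Atoh1 and Cym lie near it, and Gm6548 and Ctse lie near 0 on the x axis.

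Asns encodes asparagine synthetase, which makes asparagine from aspartate and glutamine (chr6:7675169-7693254, minus strand, GRCm38). It had 993, 1027 and 1092 normalised reads in the Tfam control lungs and 3089, 2984 and 3150 in the Tfam-deficient lungs, and 1409, 1586 and 1540 against 2079, 2673 and 2160 in the Cox10 line. The groups did not overlap in either line. Mean values rose from 1037 ± 50.7 to 3074 ± 83.8 (SD, n = 3 each), or 2.96-fold, in the Tfam line and from 1512 ± 91.5 to 2304 ± 322 (SD, n = 3 each), or 1.52-fold, in the Cox10 line. The rise in the Tfam line was larger by 0.97 on the log2 scale (SE 0.12, 95% interval 0.71 to 1.22). Asns rose in both lines, with limma adjusted p of 4.57e-07 in the Tfam and 0.00184 in the Cox10 line.

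Atf5 encodes a transcription factor of the ATF4 family that takes part in the mitochondrial stress response (chr7:44812256-44816658, minus strand, GRCm38). The Tfam control lungs had 1949, 2388 and 2207 normalised reads and the Tfam-deficient lungs 5367, 5602 and 4882. In the Cox10 line the controls had 951, 957 and 1020 and the deficient lungs 951, 1079 and 1304. Values did not overlap in the Tfam and overlapped in the Cox10 line. The ratio of the means was 2.42 in the Tfam and 1.14 in the Cox10 line, where the limma adjusted p was 0.43. The difference was 1.10 on the log2 scale (SE 0.15, 95% interval 0.79 to 1.42). Other transcription factor genes of the response did not pass the test, which does not show that they changed alike. Atf4, named after its values were seen like Ddit3, had a difference of 0.17 (SE 0.08, limma adjusted p = 0.947) and Ddit3, the gene of CHOP, 0.13 (SE 0.17, limma adjusted p = 0.953).

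Ctse encodes cathepsin E, an aspartic protease of endosomes (chr1:131638306-131675505, plus strand, GRCm38). It was a low gene, with 96.5, 98.0 and 88.0 normalised reads in the Tfam control lungs and 22.8, 25.8 and 19.6 in the Tfam-deficient lungs, which did not overlap. The Cox10 control lungs had 54.6, 49.4 and 41.0 and the Cox10-deficient lungs 51.9, 42.2 and 44.5, which did. The changes differed by -1.95 on the log2 scale (SE 0.25, 95% interval -2.50 to -1.41). In a fit of all 18 samples of the series Ctse had the same difference with a limma adjusted p of 0.98. Gm6548, which the GENCODE annotation lists as a processed pseudogene (chr17:78850792-78851956, minus strand, GRCm38), had 198, 208 and 250 normalised reads in the Tfam control lungs and 903, 928 and 921 in the Tfam-deficient lungs. The Cox10 control lungs had 365, 178 and 273 and the Cox10-deficient lungs 243, 286 and 237. The difference was 2.11 on the log2 scale (SE 0.27, 95% interval 1.52 to 2.69). A processed pseudogene is a near copy of the transcript of another gene and can share its reads, so that the origin of the Gm6548 signal is uncertain.

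**Figure D2:**
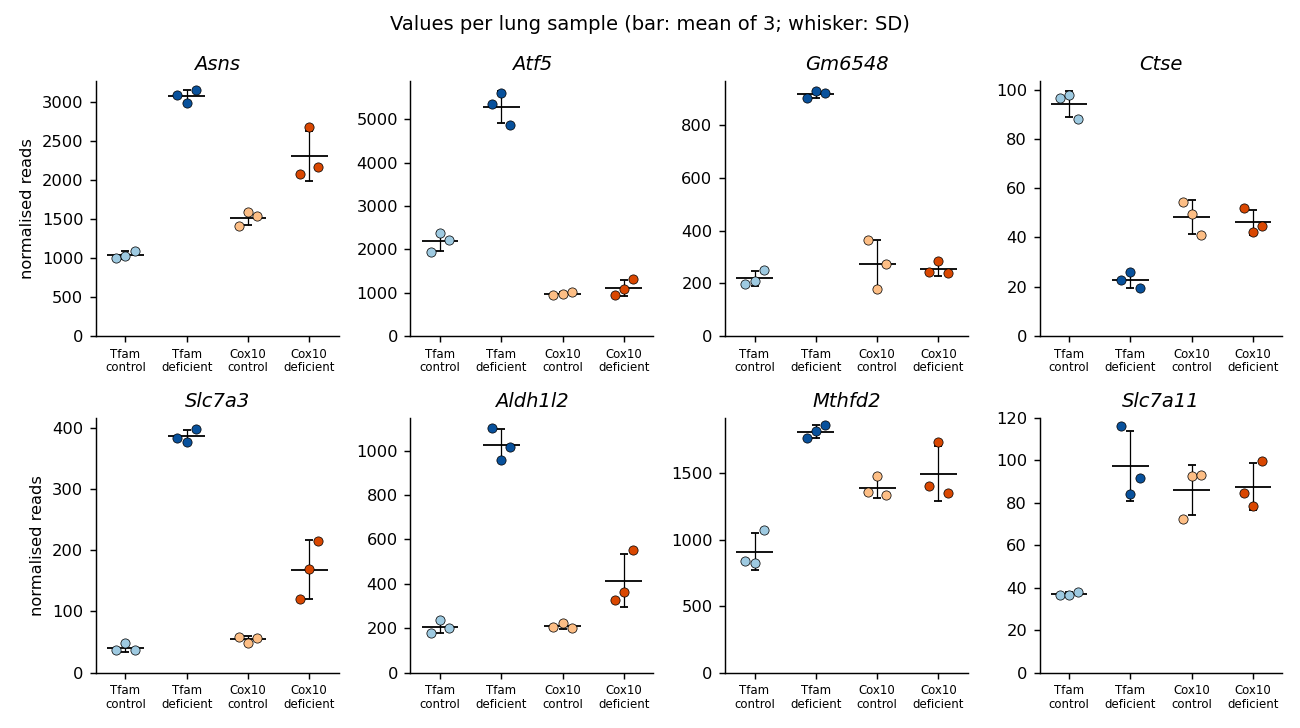
Normalised reads (y axis, linear, from 0) of 8 genes in each of the 12 lungs, with 3 points per group, a bar at the mean and a whisker of 1 SD. Asns, Atf5 and Gm6548 and, with falling values, Ctse passed the threshold for the difference, whereas Slc7a3, Aldh1l2, Mthfd2 and Slc7a11 did not pass it with all 12 samples. In all 8 panels the Tfam-deficient lungs lie clear of their controls, and in the Cox10 line this holds for Asns, Slc7a3 and Aldh1l2. Among all tested genes the values did not overlap for 22.8% in the Tfam and 21.5% in the Cox10 line. All 8 genes stood among the 30 with the smallest p for the difference.

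Which single samples the 4 calls needed was asked by leaving out each sample in turn. The number of genes with a differing change was 0 without Tfam control replicate 1, Tfam control replicate 2, Tfam deficient replicate 1, Tfam deficient replicate 3 or Cox10 control replicate 3, and 2 (Ctse and Asns) without Tfam deficient replicate 2. In these fits the size of the differences hardly moved, and over all alternatives they ranged from 0.90 to 1.08 for Asns, from 1.00 to 1.34 for Atf5, from 1.86 to 2.38 for Gm6548 and from -2.16 to -1.79 for Ctse. Over the same alternatives the highest limma adjusted p was 0.0732 for Asns, Atf5 and Gm6548 and 0.98 for Ctse. Without Cox10 deficient replicate 3 the number was 25 genes (0.17%), 21 with the higher and 4 with the lower change in the Tfam line, and it held all 4 genes above.

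**Figure D3:**
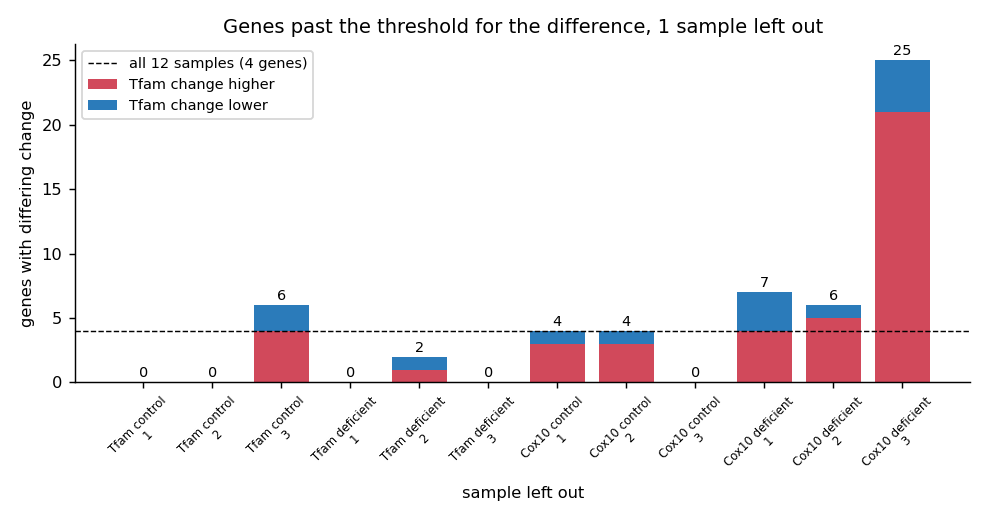
Number of genes past the threshold for the difference (y axis, stacked bars from 0) when the sample named on the x axis was left out, with genes of higher change in the Tfam line in red and of lower change in blue. The dashed line is the 4 genes found with all 12 samples. The bars range from 0 to 25, and the highest is the fit without Cox10 deficient replicate 3.

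Of the 25 genes found without Cox10 deficient replicate 3, those outside the rule for named genes were named after their values were seen. Members of the 5 stress and amino acid lists described next were 9 of them, Asns, Atf5, Aldh1l2, Slc7a1, Slc7a3, Slc7a11, Mthfd2, Chac1 and Stc2. Some of the others had the higher change in the Tfam line beside a negative estimate in the Cox10 line, which in this fit was -0.58 for Dpp4, -0.23 for Enpep, -0.90 for Mansc4, -1.48 for Mat1a and -0.55 for Napsa. Napsa, an aspartic protease of type 2 cells, had 22.8, 17.1 and 22.99 normalised reads in the Cox10 control lungs, 15.97 and 12.1 in Cox10 deficient replicates 1 and 2 and 65.2 in replicate 3. The value of replicate 3 lay above the controls and the others below. Without this library the difference of Napsa was 1.60 (limma adjusted p = 0.0375), and with it 0.88 (SE 0.61, limma adjusted p = 0.947). Pttg1, which encodes securin, a regulator of sister chromatid separation, had the lower change in the Tfam line. It had 909, 959 and 482 normalised reads in the Cox10-deficient lungs against 501, 479 and 511 in their controls, with replicates 1 and 2 above the controls and replicate 3 among them, and 1769, 1754 and 1782 against 1784, 1870 and 1633 in the Tfam line.

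Genes of the integrated stress response and amino acid supply were described as 5 lists of 88 tested genes in all, 0.599% of the genes tested. These lists were chosen with earlier results of the data known. Of the 30 genes with the smallest p for the difference, 14 belonged to them. Over the 88 genes, 67 (76.1%) changed more towards a rise in the Tfam line than in the Cox10 line, beside 49.1% of all tested genes. At an unadjusted p below 0.05 the change was higher in the Tfam line for 30 and lower for 1 of them, beside 2.23% of all genes that were higher. The 2 that passed the adjusted threshold were Asns and Atf5, and without Cox10 deficient replicate 3 there were 9, beside 0.143% of all genes. The median change of the 88 genes was 0.11 in the Tfam and 0.02 in the Cox10 line on the log2 scale.

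Of the integrated stress response list (22 genes, 19 tested) 9 genes rose in the Tfam and 5 in the Cox10 line, and none fell in either, beside 1.06% and 0.809% of all genes that rose. The median change was 0.34 in the Tfam and 0.20 in the Cox10 line, and the median difference was 0.20, or 0.35 without Cox10 deficient replicate 3. Chac1, which encodes an enzyme that degrades glutathione, had 29.5, 29.3 and 28.01 normalised reads in the Tfam control lungs and 341, 347 and 307 in the Tfam-deficient lungs, and 14.9, 19.2 and 19.99 against 42.9, 76.4 and 95.9 in the Cox10 line. It rose in both lines, 11.5-fold and 3.98-fold by the means, and the difference of 1.60 (SE 0.34, limma adjusted p = 0.285) passed the threshold only without Cox10 deficient replicate 3, with a value of 1.85 (limma adjusted p = 0.0373), and with sample weights. Trib3, a pseudokinase gene, had 65.02, 47.5 and 62.0 against 294, 223 and 297 in the Tfam line and 38.7, 47.4 and 42.0 against 90.8, 107 and 110 in the Cox10 line. Stc2, the gene of the secreted glycoprotein stanniocalcin 2, had 129, 132 and 131 against 492, 436 and 497, and 128, 105 and 136 against 182, 194 and 293. In each of these genes all deficient values lay above all control values of the line, and the fold was larger in the Tfam line. The differences of Trib3 and Stc2 were 0.96 (SE 0.24) and 1.02 (SE 0.23), with limma adjusted p of 0.637 and 0.356. Sesn2, which encodes a leucine sensor upstream of mTORC1, rose by 0.78 and 0.39. Members that did not pass in either line were Atf4, Ddit3, Ddit4, Cebpb, Cebpg, Nupr1, Ppp1r15a, Jdp2, Vldlr and Tnfrsf10b. Atf3 and Eif4ebp1, a translation repressor gene, rose in the Tfam line, by 0.56 and 0.50.

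The 3 other members were not tested. Adm2 and Gdf15 were too low for the filter in the Cox10 table only, and Fgf21 was too low in both tables. Adm2, the gene of a peptide of the calcitonin family, had 12.2, 9.10 and 7.002 normalised reads in the Tfam control lungs and 196, 193 and 170 in the Tfam-deficient lungs. In the Cox10 line it had 8.93, 2.02 and 7.995 in controls and 9.98, 20.1 and 44.5 in deficient lungs. The deficient values lay above the controls of the same line. Gdf15, a circulating signal of mitochondrial disease, had 2.03, 5.05 and 2.00 against 43.7, 16.9 and 37.2 in the Tfam line and 0.993, 1.01 and 3.998 against 2.99, 2.01 and 14.8 in the Cox10 line. Fgf21, another such signal, stayed at 5.96 or less in all 12 lungs.

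To show the element that ATF4-containing dimers are known to bind, 300 bases around the start of each gene (RefSeq, GRCm38.p6, 250 before and 50 after the start) were searched for TGATGNAA on both strands. It was present in 3.97% of 32851 promoters and in 2.71% of the tested genes that have a promoter in the table (10769 genes, any of their promoters). Among the integrated stress response list, which was drawn up from known ATF4 targets, 9 of 20 genes with a promoter held it, namely Asns, Chac1, Trib3, Slc7a11, Atf3, Nupr1, Vldlr, Fgf21 and Jdp2. Of these, Nupr1, Vldlr and Jdp2 passed the threshold in neither line. Atf5 had no match in its window. A match is a description of the letters and no evidence of binding. The windows of the 5 matched genes that rose in the Tfam line are given with the match in capitals, 5′ to 3′ on the strand of the gene. The match began 23 bases before the RefSeq start in Asns, 193 before it in Chac1, 110 before it in Atf3, 66 and 47 before it in Slc7a11 and 14 after it in Trib3. The RefSeq start of Asns lies inside the GENCODE gene span given above, and so does the match. In Chac1, Atf3, Trib3 and the second match of Slc7a11 the element reads on the opposite strand.
Asns (chr6:7693199-7693258, minus strand): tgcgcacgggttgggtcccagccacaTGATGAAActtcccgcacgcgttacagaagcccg
Chac1 (chr2:119351023-119351082, plus strand): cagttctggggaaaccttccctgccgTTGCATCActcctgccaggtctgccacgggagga
Atf3 (chr1:191183410-191183469, minus strand): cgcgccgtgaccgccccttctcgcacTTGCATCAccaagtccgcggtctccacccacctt
Slc7a11 (chr3:50443627-50443705, minus strand): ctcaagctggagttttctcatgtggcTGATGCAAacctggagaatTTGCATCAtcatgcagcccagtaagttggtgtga
Trib3 (chr2:152344037-152344072, minus strand): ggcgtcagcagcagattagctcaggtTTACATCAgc

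Enzymes of serine synthesis and one-carbon metabolism (16 genes) were split. Aldh1l2 and Mthfd2, which encode mitochondrial folate enzymes, had the largest differences. Aldh1l2 had 178, 236 and 203 normalised reads in the Tfam control lungs and 1102, 956 and 1018 in the Tfam-deficient lungs, with 207, 225 and 199 against 328, 363 and 552 in the Cox10 line. It rose 4.99-fold and 1.97-fold by the means, without overlap in either line. The difference was 1.38 (SE 0.23, limma adjusted p = 0.0618), and without Cox10 deficient replicate 3 it was 1.61 (SE 0.16, limma adjusted p = 0.000547). Mthfd2, named after its values were seen, had 836, 823 and 1069 against 1762, 1818 and 1860 in the Tfam and 1357, 1481 and 1336 against 1402, 1735 and 1351 in the Cox10 line. It rose in the Tfam and overlapped in the Cox10 line, with a difference of 0.91 (SE 0.15, limma adjusted p = 0.0618). Phgdh, the gene of the first enzyme of serine synthesis and named after its values were seen like Psat1, changed by 0.28 in the Tfam line (limma adjusted p = 0.0128) and had a value of -0.08 in the Cox10 line (limma adjusted p = 0.494), while Psat1, of the next step, had changes of 0.24 and 0.16 and passed in neither line. In all, 5 genes rose (beside 1.06% of all genes) and 1, Tyms, fell in the Tfam line, and 2 rose in the Cox10 line (beside 0.809%). The median difference of the list was 0.10, and it was 0.04 without Cox10 deficient replicate 3, 0.05 without Cox10 deficient replicate 1 and 0.06 without Cox10 control replicate 2.

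Among enzymes of asparagine, proline, glutamate and cysteine metabolism (15 genes) 5 rose in the Tfam line and 1, Asns, in the Cox10 line, beside 1.06% and 0.809% of all genes. Cth, which encodes the last enzyme of cysteine synthesis, had 106, 97.0 and 109 normalised reads against 262, 232 and 265 in the Tfam line and 241, 186 and 200.9 against 269, 307 and 255 in the Cox10 line. The groups did not overlap in either line, and the difference was 0.87 (SE 0.17, limma adjusted p = 0.191). Gpt2, the gene of mitochondrial alanine transaminase, had a change of 0.60 and of 0.16 and a difference of 0.44 (SE 0.09, limma adjusted p = 0.285). Glud1, the gene of glutamate dehydrogenase, changed by 0.02 and 0.03.

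Of 20 amino acid transporter genes 6 rose in the Tfam line and 1, Slc7a3, in the Cox10 line, beside 1.06% and 0.809% of all genes. Slc7a3 and Slc7a1 encode carriers of arginine and lysine. Slc7a3 had 36.6, 48.5 and 37.0 normalised reads in the Tfam control lungs and 384, 377 and 399 in the Tfam-deficient lungs, and 58.6, 48.4 and 57.0 against 120, 170 and 216 in the Cox10 line. Its ratio of means was 9.50 in the Tfam and 3.08 in the Cox10 line, a difference of 1.66 on the log2 scale (SE 0.27, 95% interval 1.08 to 2.24, limma adjusted p = 0.0618). Without Cox10 deficient replicate 3 the difference was 1.86 and passed the threshold (limma adjusted p = 0.00714). Slc7a1, at a far higher number of reads, had 2203, 2226 and 2037 against 3106, 3031 and 3161 in the Tfam and 1950, 1875 and 1979 against 2023, 2122 and 1980 in the Cox10 line. Its difference was 0.45 (SE 0.07, limma adjusted p = 0.0618). Slc7a11, the gene of the cystine and glutamate exchanger, had 36.6, 36.4 and 38.0 against 116, 84.4 and 91.9 in the Tfam line, and 72.5, 92.8 and 92.9 against 84.8, 78.4 and 99.8 in the Cox10 line. It rose in the Tfam line by 1.36 and overlapped in the Cox10 line, at 0.03, with a difference of 1.33 (SE 0.24, limma adjusted p = 0.103). Slc7a5 and Slc3a2, named after their values were seen, encode the chains of a carrier of large neutral amino acids and had differences of 0.54 and 0.34. Carriers with changes near 0 in both lines included Slc38a2, at 0.01 and 0.07, and Slc38a4, at 0.04 and -0.02.

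Cytosolic aminoacyl-tRNA synthetases charge transfer RNAs with their amino acids. All 20 tested genes had a difference above 0, beside 49.1% of all genes, and the differences were small, from 0.02 to 0.37 with a median of 0.15. The median change was 0.07 in the Tfam and -0.07 in the Cox10 line. Of these genes 3, Gars, Yars and Sars, rose in the Tfam line (beside 1.06% of all genes) and 0 in the Cox10 line, and 0 passed the threshold for the difference, where 7 had an unadjusted p below 0.05, beside 2.23% of all genes in that direction. Yars had 1961, 2062 and 2434 normalised reads against 2672, 2655 and 2828 in the Tfam and 3818, 3794 and 3644 against 3636, 4001 and 3419 in the Cox10 line. The Tfam groups were separate and the Cox10 groups overlapped. Without Cox10 deficient replicate 3 the median difference of the list was 0.08.

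**Figure D4:**
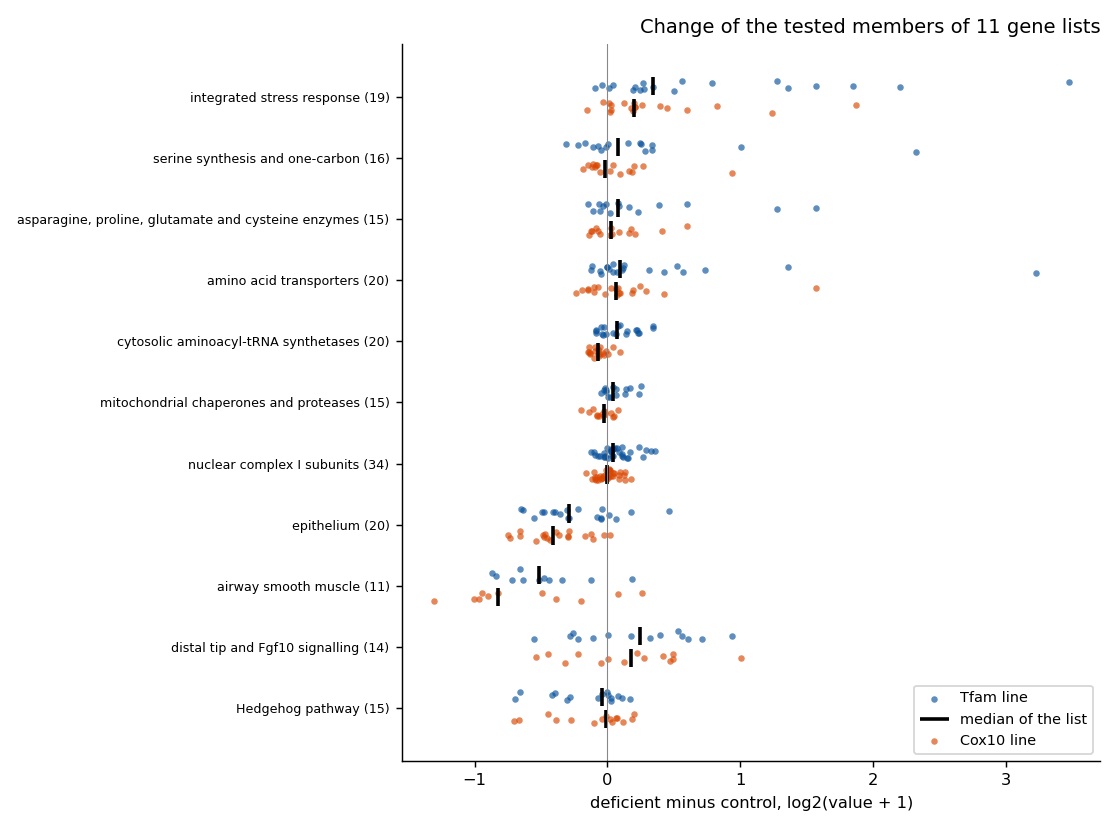
Change in deficient lungs (x axis, deficient minus control on the log2(value + 1) scale) of the tested members of 11 gene lists, with 1 point per gene for the Tfam line in blue and for the Cox10 line in orange, and a black bar at the median of the list in that line. The number of tested members stands beside the name. In the integrated stress response list the highest blue points reach 3.47 and the highest orange points 1.87, whereas in the epithelium and airway smooth muscle lists the medians of both lines lie below 0.

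Of 15 mitochondrial chaperone and protease genes, 21 of mitochondrial DNA maintenance and transcription, 34 of complex I, 27 of cytochrome oxidase and its assembly and 28 of complexes II, III and V, 0 passed the adjusted threshold for the difference, beside 0.0272% of all genes, or for the mean effect, beside 7.77%. At an unadjusted p below 0.05 the difference numbers were 3, 0, 2, 1 and 1, beside 4.61% of all genes. Hspa9, the gene of the mitochondrial HSP70, had a difference of 0.28 (SE 0.10, limma adjusted p = 0.947). Mitochondrially encoded genes were not analysed here. Chaperones of the endoplasmic reticulum (16 genes) had medians of -0.14 in the Tfam and -0.12 in the Cox10 line. Hyou1, Hsp90b1 and Pdia3 fell over both lines, by 0.21, 0.18 and 0.14 on the log2 scale, and 0 of the 16 rose, beside 4.35% and 3.43% of all genes. These 3 calls lay near the threshold and held in 13, 11 and 10 of the 22 alternatives.

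The mean of the effects, with line as a block, asked what the lines had in common. It passed the threshold for 1143 of 14701 genes (7.77%), 504 higher (3.43%) and 639 lower (4.35%) in deficient lungs. For 1011 of these genes (88.5%) the whole 95% interval of the difference lay within 1 on the log2 scale, beside 86.1% of all tested genes, a share close to the background. Only 3 of the 1143 genes, Asns, Atf5 and Ctse, also passed for the difference. Each line on its own, in the same 12-sample fit, had called genes, 408 for Tfam (2.78%) and 316 for Cox10 (2.15%). Of them 170 passed in both lines in the same direction, 41.7% of the Tfam genes and 53.8% of the Cox10 genes, and 0 in opposite directions. Of the 156 genes that rose in the Tfam line, 92.9% had a positive change in the Cox10 line, with medians of 0.54 and 0.28. Of the 119 that rose in the Cox10 line, 97.5% had a positive change in the Tfam line, with medians of 0.49 and 0.32. Choosing genes by their own line favours larger values in that line. For the 252 Tfam genes (1.71%) and 197 Cox10 genes (1.34%) that fell, the medians were -0.60 in the Tfam line against -0.39 in the Cox10 line, and -0.64 in the Cox10 line against -0.50 in the Tfam line. Without Cox10 deficient replicate 3, 383 genes rose in the Tfam line, with medians of 0.42 there and 0.18 in the Cox10 line. Of them 16.2% also rose past the threshold in the Cox10 line, against 33.3% with all 12 samples. For the 490 genes that fell, the medians were -0.44 and -0.29, and these shares were 37.6% and 46.8%. Values did not overlap between deficient and control lungs for 22.8% of all genes in the Tfam line, 21.5% in the Cox10 line and 7.89% in both.

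The genes with the largest mean effects are named among called genes that averaged 50 or more normalised reads without overlap in either line, which leaves out Olfm4 and Cps1. Atoh1, a transcription factor gene of hair cell and secretory cell fates, had 2.03, 7.07 and 8.002 normalised reads in the Tfam control lungs and 116, 138 and 144 in the Tfam-deficient lungs, and 10.9, 2.02 and 5.996 against 61.9, 89.5 and 223 in the Cox10 line. All deficient values lay above all control values. In the Tfam table the gene reached 10 only in the deficient lungs and so was tested through the group where it is high, and with controls near the floor the size of its change is uncertain. Its mean effect of 4.28 is therefore given as a description, with no test. The difference was 0.36, and its interval of -1.31 to 2.03 was wide. Cym, the gene of the milk-clotting protease chymosin, had 1601, 1287 and 1421 against 67.5, 84.4 and 117 in the Tfam line, and 216, 319 and 255 against 23.95, 20.1 and 20.8 in the Cox10 line. It fell with a mean effect of -3.78 (SE 0.14, limma adjusted p = 2.52e-09) and a difference of -0.48 (95% interval -1.06 to 0.09). Cckar, a cholecystokinin receptor gene, had 2185, 2030 and 1860 against 708, 635 and 648, and 1410, 1509 and 1392 against 453, 428 and 332. Its mean effect was -1.72 (SE 0.08), with a difference of 0.23 (95% interval -0.08 to 0.54).

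Other genes with large mean effects were Chac1, Slc7a3, Trib3, Aldh1l2 and Stc2, described above, Pthlh, the gene of a parathyroid hormone-related peptide, at 1.40, and the relaxin receptor gene Rxfp1 at 1.67. Pthlh rose by 1.66 in the Tfam and 1.13 in the Cox10 line, with a difference of 0.53 (95% interval 0.04 to 1.01, limma adjusted p = 0.947). Lower genes were Tinag, the gene of a basement membrane protein, at -2.27, the carboxypeptidase gene Cpn1 at -2.01, Gm19990 at -1.68, the receptor tyrosine kinase gene Ret at -1.63, the membrane protein gene Prom2 at -1.48 and the matrix protein gene Smoc2 at -1.39. Smoc2 changed by -1.82 in the Cox10 line (limma adjusted p = 0.00317), with a value of -0.96 for Tfam (limma adjusted p = 0.0951), and the difference was 0.86 (95% interval 0.02 to 1.70, limma adjusted p = 0.947). Apart from Atoh1, these genes kept the threshold of the mean effect in every one of the 22 alternatives.

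**Figure D5:**
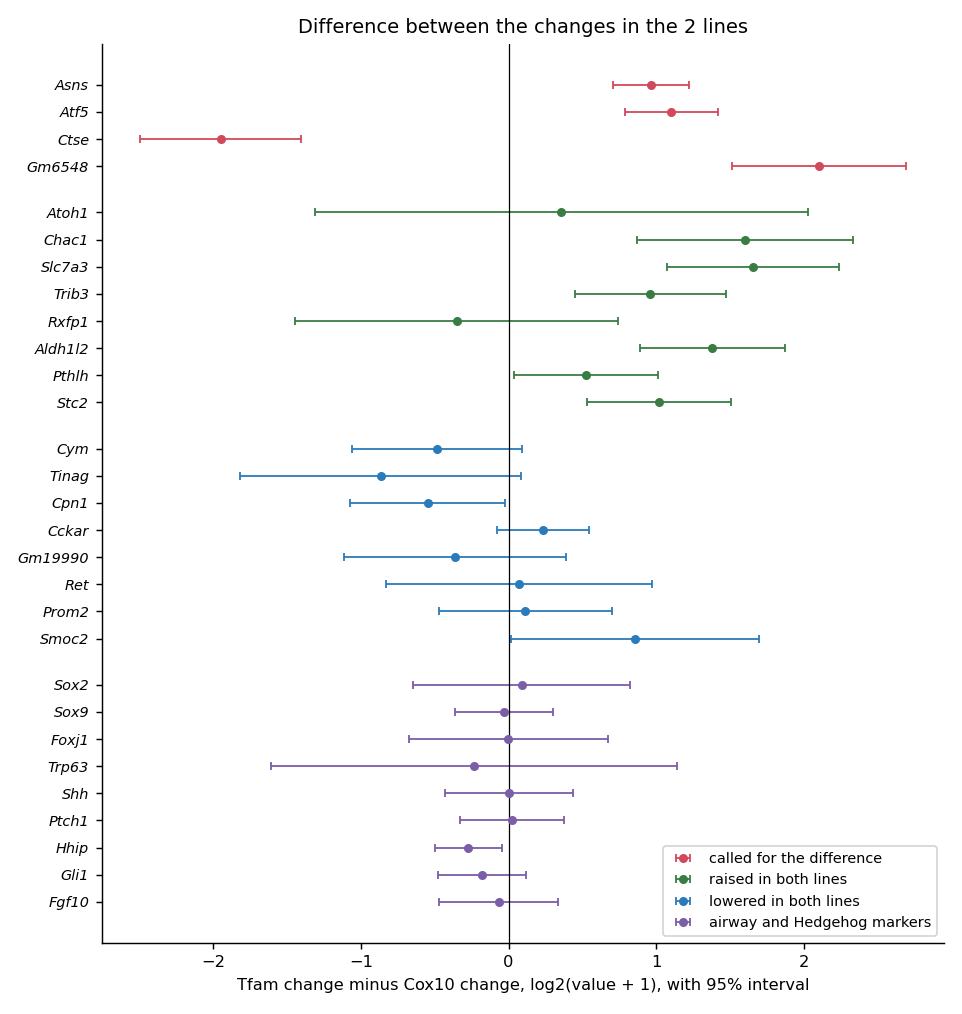
Difference between the change in the Tfam line and the change in the Cox10 line (x axis, log2(value + 1) scale) with its 95% interval for the 4 genes called for the difference, the 8 genes raised and the 8 lowered most over both lines among called genes that averaged 50 or more normalised reads without overlap in either line, and 9 airway and Hedgehog markers. The intervals of the 4 called genes lie away from 0, and those of 8 of the 9 markers include 0. Intervals of Chac1, Slc7a3, Trib3, Aldh1l2, Stc2, Pthlh and Smoc2 lie above 0 without an adjusted p below 0.05.

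In each line 4 called genes were named by rule for the largest excess of the size of their change over its size in the other line. On the Tfam side they were Gm6548, Ctse, Slc7a3 and Chac1. On the Cox10 side they were Sall4, Olfm4, Oit3 and Cps1, and 0 of these 4 passed the test of the difference (limma adjusted p 0.934 to 0.947). Cps1, which encodes the first enzyme of the urea cycle, had 190, 184 and 184 normalised reads against 47.9, 75.4 and 29.7 in the Cox10 line, and 96.5, 48.5 and 89.0 against 27.8, 52.6 and 36.2 in the Tfam line, where values overlapped. Its difference was 0.97 (95% interval -0.03 to 1.97). Oit3 had 15.9, 22.2 and 19.99 against 36.9, 32.2 and 52.4 in the Cox10 line and overlapping values from 50.8 to 68.5 in the Tfam line.

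Markers of the lung epithelium fell, 7 of 20 for Tfam (beside 1.71% of all genes) and 8 of 20 for Cox10 (beside 1.34%). Over both lines 11 passed the mean effect and all 11 fell, beside 4.35% of all genes, with list medians of -0.29 in the Tfam and -0.41 in the Cox10 line. The mean log2 value of the list ranged from 10.6 to 10.7 in the Tfam control lungs, 10.3 to 10.4 in the Tfam-deficient, was 10.2 in the Cox10 control lungs after rounding and ranged from 9.61 to 10.1 in the Cox10-deficient lungs, where replicate 3 was the highest. The median difference was 0.14, and it was 0.26 without that library, 0.05 without Cox10 deficient replicate 1 and 0.09 without Tfam deficient replicate 3. Foxa1, a transcription factor gene of the epithelium, had 2467, 2791 and 2426 against 1625, 1643 and 1611 in the Tfam and 1660, 1500 and 1524 against 905, 986 and 1072 in the Cox10 line. It fell by 0.65 and 0.66 on the log2 scale, and the difference of 0.01 had a 95% interval of -0.21 to 0.23. Esrp2, an epithelial splicing factor gene, had a difference of 0.02 (95% interval -0.19 to 0.24) and Foxa2 one of -0.02 (95% interval -0.19 to 0.15). The part of this fall in the values of the stress lists was not tested.

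Of 16 airway secretory and basal genes 9 were tested, and Scgb1a1, the defining gene of club cells, had at most 2.03 normalised reads in any lung. Aldh1a7, Cldn10 and Prom2 fell in both lines, Aldh1a7 by 1.18 and 0.97 on the log2 scale, beside 1.71% and 1.34% of all genes that fell. Sox2, the transcription factor gene of the proximal airway, had 510, 608 and 606 against 453, 361 and 396 in the Tfam and 560, 386 and 491 against 503, 292 and 207 in the Cox10 line. Its mean effect of -0.56 (SE 0.16, limma adjusted p = 0.0531) did not pass the threshold, and the difference of 0.09 had a 95% interval of -0.64 to 0.82. Foxj1, of multiciliated cells, had changes of -0.80 in both lines and a mean effect of -0.80 (SE 0.15, limma adjusted p = 0.00461), with a difference of 0.00 and an interval of -0.67 to 0.67. Trp63, of basal cells, had a mean effect of 0.28 (SE 0.31). Among 8 tested neuroendocrine genes, Ddc and Uchl1 fell in the mean effect, by 0.39 and 0.58 on the log2 scale, beside 4.35% of all genes. Ager, of type 1 cells, had 1129, 1272 and 1226 against 373, 431 and 455 in the Tfam and 422, 378 and 371 against 207, 237 and 254 in the Cox10 line. It fell in both, by 1.53 and 0.75, and the difference of -0.78 (SE 0.14, limma adjusted p = 0.113) did not pass the threshold. Of the 15 tested alveolar genes 2 fell and 2 rose in the mean effect, beside 4.35% and 3.43% of all genes. The 2 that rose were Abca3, a lipid transporter gene of type 2 cells, by 0.49 (SE 0.10, limma adjusted p = 0.00544), and Cebpa, a transcription factor gene, by 0.51 (SE 0.13, limma adjusted p = 0.025). In both genes Cox10 deficient replicate 3 had the highest value of its line.

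Signals between epithelium and mesenchyme changed in both lines. Shh had 980, 898 and 882 normalised reads against 483, 624 and 599 in the Tfam and 988, 1110 and 1008 against 567, 836 and 539 in the Cox10 line. The change was -0.70 in each, the mean effect -0.70 (SE 0.10, limma adjusted p = 0.000447), and the difference 0.00 (95% interval -0.43 to 0.44). Of 15 Hedgehog pathway genes 4 fell in the mean effect, among them Shh, Ptch1 and Hhip, and 1, the co-receptor gene Boc, rose, beside 4.35% and 3.43% of all genes. Without Cox10 deficient replicate 3 the numbers were 4 and 0. Ptch1, the gene of the SHH receptor and a target of the pathway, had changes of -0.42 and -0.44, with a difference of 0.03 (95% interval -0.33 to 0.38). Hhip, a secreted inhibitor and target, fell by 0.66 in the Tfam and by 0.39 in the Cox10 line on the log2 scale, and its difference of -0.27 (95% interval -0.50 to -0.05) had a limma adjusted p of 0.947. Gli1 had a mean effect of -0.19 (SE 0.07, limma adjusted p = 0.121). Fgf10 had 1291, 1290 and 1350 against 2385, 2370 and 2780 in the Tfam and 1386, 1472 and 1357 against 2373, 2482 and 3781 in the Cox10 line. It rose in both without overlap, with a mean effect of 0.97 (SE 0.09, limma adjusted p = 1.71e-05) and a difference of -0.07 (95% interval -0.47 to 0.34). Of the 14 genes of the distal tip list 7 rose (Fgf10, Etv4, Dusp6, Bmp4, Spry1, Spry2 and Id2) and 3 fell (Etv5, Fgfr2 and Mycn) in the mean effect, beside 3.43% and 4.35% of all genes, while Sox9, the tip progenitor marker, had -0.24 (SE 0.07, limma adjusted p = 0.0617).

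Airway smooth muscle genes fell, 7 of 11 in the mean effect (beside 4.35% of all genes), 2 for Tfam (beside 1.71%) and 2 for Cox10 (beside 1.34%), with list medians of -0.52 in the Tfam and -0.83 in the Cox10 line and a median difference of 0.10. Without Cox10 deficient replicate 1 the median difference was 0.49, without Cox10 deficient replicate 2 0.06, without Cox10 control replicate 1 0.01 and without Cox10 control replicate 2 0.22. Without Cox10 deficient replicate 3 it was -0.0027 and the Cox10 median was -0.51. Myocd, the master regulator of smooth muscle genes, had 407, 418 and 344 against 230, 234 and 176 in the Tfam and 576, 593 and 513 against 285, 229 and 175 in the Cox10 line, with changes of -0.87 and -1.31 and a difference of 0.43 (SE 0.23, 95% interval -0.06 to 0.93). Of 14 mesenchyme genes Lum, Pdgfra and Pdgfrb rose in the mean effect (beside 3.43% of all genes), and Pdgfra did so by 0.19 and 0.22. Of 14 endothelial genes 0 passed either test, beside 0.0272% of all genes for the difference and 7.77% for the mean effect (2 rose in the mean effect without Cox10 deficient replicate 3). The difference was below 0 for 13 of them and above 0 for 1, beside 49.1% of all genes above 0. The median difference was -0.14, and it was 0.05 without Cox10 deficient replicate 3.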

How the data were processed

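The authors deposited, for each line, a table of signal values, which are gene read counts divided by a size factor of each sample, and per the labels' processing notes Trim Galore, HISAT2, featureCounts and DESeq2 were used with the mouse build mm10. Size factors were set separately for each table, and levels were not tested across tables. The tables also hold the authors' fold changes and p-values, which were not used. Rows with a repeated gene symbol were left out.

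Groups followed the labels. The 12 samples were fitted in one 4-group model of log2(value + 1) with limma 3.58.1 (R 4.3.3, lmFit, contrasts.fit and eBayes with trend), two-sided, with Benjamini-Hochberg adjustment over 14701 genes and a threshold of 0.05. The mean effect came from an additive model of line and deficiency. The members and gene lists were chosen with earlier results of these data known. Named genes were those called for the difference, the 8 highest and 8 lowest mean effects among called genes that averaged 50 or more normalised reads without overlap in either line, the targeted genes, 9 airway and Hedgehog markers, the 3 members of each list with the smallest p, and in each line the 4 called genes whose change exceeded in size that of the other line the most. The script was tested on simulated data. Each sample was left out in turn, and other pseudocounts, filters, scalings, thresholds, sample weights, a replicate block, Xist as covariate and all 18 samples were tried. limma-voom was chosen after seeing the data. Totals of 27725270 to 29539368 normalised reads limit the precision of low genes. Some genes are not reported here.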

Additional observations from a re-analysis of the deposited data

Results flagged for a closer look

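The change in deficient lungs differed between the Tfam line and the Cox10 line by the test of the difference itself for 4 genes, each with a limma adjusted p of 0.0126. The difference on the log2 scale was 0.97 for Asns, 1.10 for Atf5, 2.11 for Gm6548 and -1.95 for Ctse. All 3 Tfam-deficient lungs lay outside the range of their controls for each of these genes, as they did for 22.8% of all tested genes.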

How the results depend on the processing

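The difference was called for 4 genes, and for 37 with sample weights, 8 with all 18 samples, 0 at an adjusted p below 0.01 and 0 to 25 with 1 sample left out. The mean effect was called for 1143 genes, for 485 at an adjusted p below 0.01, 87 with a change of at least 1 on the log2 scale and 703 (without Cox10 control replicate 3) to 1335 with 1 sample left out. The 408 genes of the Tfam line became 1319 with weights, 167 at an adjusted p below 0.01, 80 with a change of at least 1 and 176 (without Tfam control replicate 1) to 873 (without Cox10 deficient replicate 3) with 1 sample left out. The 316 of the Cox10 line became 1418, 126, 64 and 125 to 499 (without Cox10 deficient replicate 2). The median difference of the integrated stress response list, 0.20, ranged from 0.17 to 0.35 with 1 sample left out. The cause was not tested. No named gene past a threshold changed direction. Median differences of lists, which have no test, changed sign for endothelium (-0.14 to 0.05) and neuron and glia (0.17 to -0.08) without Cox10 deficient replicate 3, neuroendocrine (0.12 to -0.10) without Cox10 deficient replicate 2 and erythroid genes (-0.12 to 0.03) without Cox10 deficient replicate 1, among others. An edgeR fit on reads recovered from the values, which in each sample are whole multiples of 1 step, was planned and not run, and limma-voom called 4 differences.

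Whether replicate numbers pair the samples cannot be decided from so few correlations. Correlations of same-numbered deviations were -0.317, -0.219 and 0.181 in the Tfam line and 0.457, 0.195 and 0.0371 in the Cox10 line. A replicate block gave counts of 3 for the difference, of which 2, Asns and Atf5, were among the 4 (Ctse and Gm6548 had a limma adjusted p of 0.0633), and 1383 for the mean effect, 483 for the Tfam line and 355 for the Cox10 line.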

Other observations

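Heart and skeletal muscle genes (13 tested) had median changes of 0.46 in the Tfam and -0.46 in the Cox10 line (-0.05 without Cox10 deficient replicate 3). Of them 0 passed the threshold of any test. The shares of all genes were 0.0272% for the difference, 7.77% for the mean effect, 2.78% for Tfam and 2.15% for Cox10. Nppa, the gene of a peptide of the heart atrium, had 78.2, 179 and 136 normalised reads in the Tfam control lungs, 669, 607 and 557 in the Tfam-deficient, 155, 1.01 and 83.0 in the Cox10 control and 163, 2.01 and 4.94 in the Cox10-deficient lungs. Cartilage genes (9 tested) had medians of -0.42 in the Tfam and 0.10 in the Cox10 line. Lect1, the gene of a cartilage matrix protein, had a difference of -0.79 (SE 0.20, limma adjusted p = 0.688). Sterol and fatty acid synthesis genes (22) had medians of -0.25 and -0.16 (-0.01 for Cox10 without Cox10 deficient replicate 3), with 4 lower (beside 4.35% of all genes) and 0 higher in the mean effect. Of 22 cell cycle genes 6 were lower and 0 higher in the mean effect, beside 4.35% and 3.43% of all genes. Their median changes were -0.13 in the Tfam and -0.12 in the Cox10 line. Of 15 p53 target and apoptosis genes 3 were higher in the mean effect (beside 3.43% of all genes), Fas, Ccng1 and Mdm2, which held in 16, 12 and 9 of the 22 alternatives.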
